A study of Mus musculus with 7 samples.

Results

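Translation initiation and elongation factors are the proteins that load the ribosome onto an mRNA, find its start codon and move it along the coding sequence. They were chosen by name: every probe set with a single gene symbol that begins with Eif1 to Eif6 or with Eef1 or Eef2 was taken, apart from the Y-linked Eif2s3y, and each gene was represented by its probe set of highest mean signal. This gave 48 genes, read by 65 probe sets, of the 8251 genes that the array names singly, and 14 of the 48 had more than 1 probe set. One further probe set, shared by Eif4a3 and related genes, carried several gene names and was left out. The naming rule itself uses no measured difference, although it was set with earlier results of these data known. Liver RNA of female mice was read on 7 Affymetrix U74Av2 arrays, 1 for each sample. The mice were phenotypically normal (+/+ or +/df), had free access to food and were between 24 and 26 months old at death. The title and source fields call the animals normal, while the description field calls them df/df Ames dwarf mice, and the titles were followed. All 7 samples formed 1 group, with replicate numbers 1, 2, 3, 4, 6, 7 and 8 from the titles, so no groups could be compared and the values give each gene's level and its spread between animals. Separate animals are not stated outright for the 7 RNAs, so p-values measure only the spread between these samples, which may be technical. Spread between animals, and an order of animals, are meant here in that sense.

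Initiation starts when eIF2, bound to GTP, carries the initiator methionyl-tRNA to the small ribosomal subunit, where eIF1, eIF1A and eIF3 hold the complex open for scanning. The eIF4 proteins bind the mRNA cap, unwind the leader and connect it to eIF3, and eIF5, eIF5B and eIF6 govern how the large subunit joins. During elongation eEF1A delivers aminoacyl-tRNA and eEF2 moves the ribosome by 1 codon. The liver makes most plasma proteins, and its rate of translation is set largely by phosphorylation of eIF2, of the eIF4E binding proteins and of eEF2, which mRNA signals do not show.

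Several elongation factors belong to the mRNAs with a 5′ terminal oligopyrimidine tract, a run of C and T at the start of the message through which mTOR and Larp1 control their translation. Annotated start sites were available for 40 of the 48 genes in the RefSeq promoter table of GRCm38.p6. The window searched was the 30 bases from 7 before the start to 23 from it. A run of at least 8 consecutive C or T on the gene's strand lay there in 11 of these 40 genes (27.5%). Of 6572 named genes on the array with a start, 12.9% had such a run. Among genes past the filter on signal described below, it was 8 of 30 (26.7%), against 12.9% of 3654. A gene counted if any of its annotated starts had a run. Counted by single start window, 10.2% of all 32851 in the table had one. A run found this way is a description and not a mapped tract, since the annotated start can lie some bases from the one that liver uses. The windows of the 6 genes with the highest signal among those with an annotated start are shown to contrast 3 starts with such a run, in capitals, and 3 without one. They lie at chr9:78481702-78481731 (minus strand) for Eef1a1, chr10:81176624-81176653 (plus) for Eef2, chrX:94212629-94212658 (minus) for Eif2s3x, chr16:23107461-23107490 (plus) for Eif4a2, chr10:61452647-61452676 (minus) for Eif4ebp2 and chr7:126566344-126566373 (minus) for Eif3c.
Eef1a1: cgCCCTCTTCCCgagggtgggggagaacgg
Eef2: gccgggcgttgacgtcagcggTCTCTTCCg
Eif2s3x: caTTTTCCTTTTCTCTCCgagcaagatggc
Eif4a2: accccgtaggagcagggcggccgaggagcg
Eif4ebp2: agcgggacgaccgggcgagagcaggcgagt
Eif3c: ctcagagggactcggcagcttagctggttc
The runs were 10, 8 and 16 bases long in Eef1a1, Eef2 and Eif2s3x, while the longest runs in Eif4a2, Eif4ebp2 and Eif3c had 4, 2 and 3 bases. The run of Eef2 begins at base 15 of the annotated message, and those of Eef1a1 and Eif2s3x begin 5 bases before the annotated start. Further runs were found in Eif3l, Eif3k, Eif3f, Eef1a2, Eif2b2, Eif2b5, Eif2ak4 and Eif4enif1.

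Signals are scaled intensities per probe set, and since probes differ in brightness a higher signal on one gene's probe set does not show more transcript than on another's. A signal under 50.04, which is 0.1 of the arrays' trimmed mean, was set to that floor before log2 was taken, and genes with a mean of at least 200.1 were tested. The 10 hepatocyte markers were all measured and past this filter, with a summed signal of 157066 to 193210.4 per array. The 14 skeletal muscle markers summed to 12918 and 7347 on replicates 1 and 2 and to 2927 to 3245 on the other 5 arrays. By their mean log2 signal, bacterial spike-in controls divided replicates 1 to 4 from replicates 6 to 8, with a gap of 0.40. These controls are added during preparation and label no batch, so the split is called an array set here.

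Of the 48 translation factor genes, 36 passed the filter, 12 did not, and 3 of these 12 (Eef1g, Eif4enif1 and Eif4h) lay below the floor on all 7 arrays. The median signal of the 48 genes was 423, against 243 for all 8251 named genes. Spread between animals was close to that of genes in general, and this was compared without a test. The tested translation factors' median SD of log2 signal was 0.16, against 0.18 for all 4481 genes tested, and 32 of 36 (88.9%) had an SD under 0.3, against 82.7% of all genes tested. The SD was below the value expected at the gene's level in 24 of 36 (66.7%), against 50.9% of all genes tested. No translation factor passed the limma-based test in either direction after Benjamini-Hochberg adjustment, and over all 4481 genes that test called 0 (0%) with more spread and 0 (0%) with less. In simulated data of this size the adjusted test missed even clearly raised or lowered SDs, so the absence of calls does not show that a gene's spread is ordinary. At an unadjusted p under 0.05, Eef1b2, Eef1a2 and Eif4b (3 of 36, 8.33%) had more spread than genes of their level, against 301 genes (6.72%) overall. Eif3c, Eif3b and Eif4ebp1 (3 of 36, 8.33%) had less, against 215 genes (4.8%).

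**Figure D1:**
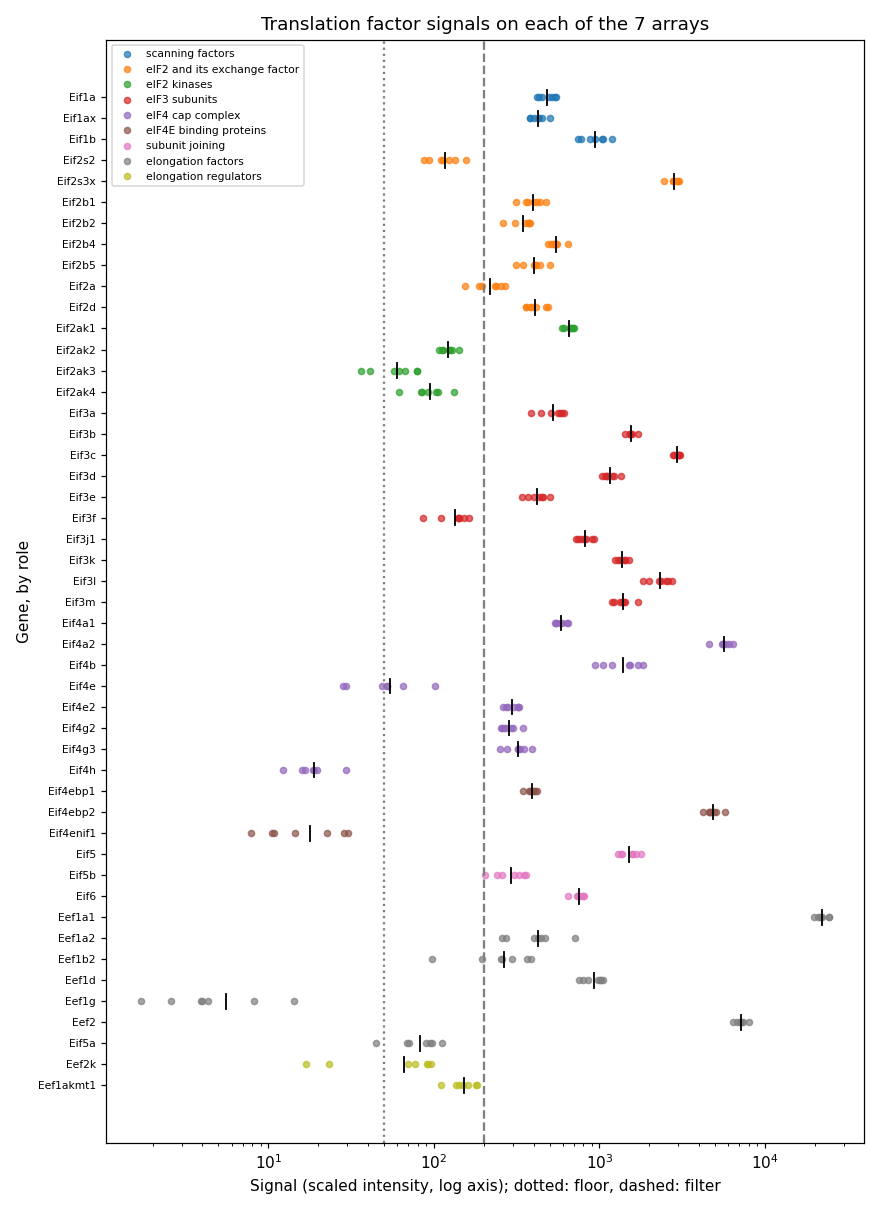
Signal of each of the 48 translation factor genes (rows, coloured by role) on each of the 7 arrays (points), with the mean as a black bar, on a log axis. The dotted line is the floor of 50.04 and the dashed line the filter of 200.1, and Eef1g, Eif4enif1 and Eif4h lie left of the floor on every array.

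**Figure D2:**
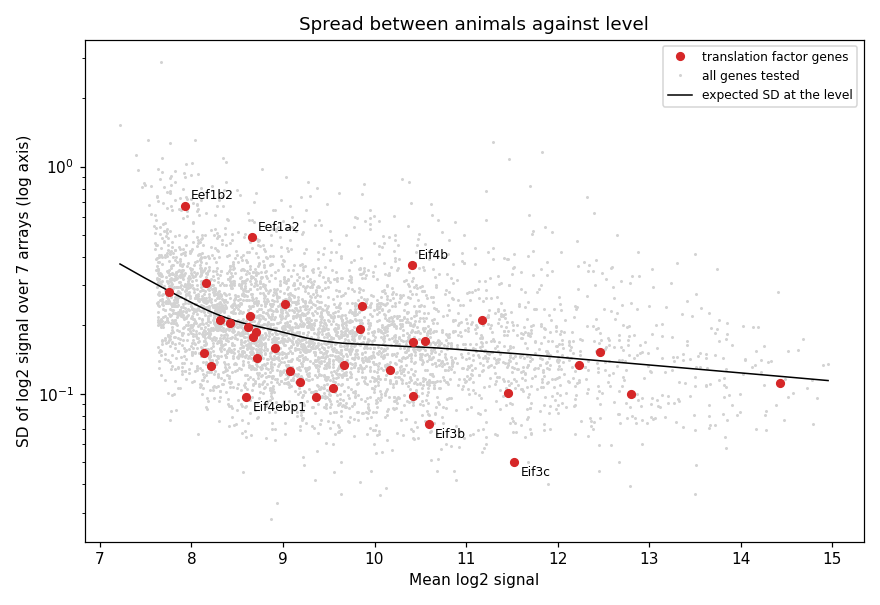
SD of log2 signal over the 7 arrays (log axis) against mean log2 signal for all 4481 genes tested (grey) and the 36 translation factors among them (red), with the expected SD at each level as a line. Eef1b2, Eef1a2 and Eif4b are labelled above the line, and Eif4ebp1, Eif3b and Eif3c below it.

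The scanning factors keep the small subunit in a state that reads the leader for a start codon. Eif1a and Eif1ax, which encode nearly identical forms of eIF1A, had signals of 485 ± 52.8 and 424 ± 43.4 (SD, n = 7). Eif1a was lowest on replicate 7 at 417 and highest on replicate 2 at 546, and Eif1ax was lowest on replicate 1 at 379 and also highest on replicate 2, at 502. The second probe sets of these genes were both highest on replicate 4, at 372 for Eif1a and 409 for Eif1ax, so the order of the animals depends on the probe set. Whether each probe set also reads the other gene was not tested. Eif1b, a close relative of eIF1, had 944 ± 159 and was lowest on replicate 6 at 746 and highest on replicate 8 at 1184. None of the 3 had an unadjusted p under 0.05 in either direction.

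The eIF2 complex was represented by its beta subunit Eif2s2 and its X-linked gamma subunit Eif2s3x. Eif2s3x had 2819 ± 189.8, with 2447 on replicate 4 and 2770.0 to 3012 on the other 6 arrays. Its log2 SD was 0.10, and 0.05 without replicate 4, so that array holds most of its spread. Eif2s2 lay below the filter, at 117 ± 23.8, and ranged from 86.7 on replicate 1 to 156 on replicate 2. The alpha subunit, the site of the regulatory phosphate, is not among the singly named genes and was not analysed here.

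The exchange factor eIF2B reloads eIF2 with GTP, and 4 of its subunits were measured. The regulatory subunits Eif2b1, Eif2b2 and Eif2b4 had 396 ± 52.8, 347 ± 45.3 and 543 ± 49.5. The catalytic subunit Eif2b5 had 403 ± 60.4 and was highest on replicate 1 at 500.2 and lowest on replicate 6 at 315. The subunits did not share an order of animals: Eif2b2 was lowest on replicate 1, at 260.5, where Eif2b5 was highest, and Eif2b1 and Eif2b4 were highest on replicate 7, at 472 and 642. Eif2b2 had a log2 SD of 0.20, but 0.11 without replicate 1, and that of Eif2b4 was 0.13, but 0.07 without replicate 7. On the second probe set of Eif2b5, replicate 4 had 133 and the other 6 arrays 250.3 to 304, an order unlike that of the first. Eif2a and Eif2d, which can bring initiator tRNA to the ribosome without eIF2, had 219 ± 40.6 and 411 ± 52.2. Eif2a was lower on all 3 arrays of replicates 6 to 8, at 155 to 196, than on replicates 1 to 4, at 235 to 268, and its log2 SD was 0.28, or 0.13 with array set means removed. Part of the spread of Eif2a thus lies between the array sets.

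The 4 kinases that phosphorylate eIF2 each answer to a different stress, and only 1 of them passed the filter. Eif2ak1, which responds to lack of heme, had 658 ± 43.2 and ranged from 591 on replicate 4 to 705 on replicate 1. Eif2ak2, which binds double-stranded RNA and is induced by interferon, had 126, 108, 113, 142, 128, 112 and 123 on replicates 1, 2, 3, 4, 6, 7 and 8. Its highest value was on replicate 4, where 18 interferon response genes had their lowest summed signal, 13249. These genes summed to 28786 and 26236 on replicates 1 and 8, against 13249 to 17552 on the other 5. On replicates 1 and 8 Eif2ak2 lay within its range of 108 to 142 on the other 5 arrays. Iigp1 alone gave 12028 of the sum on replicate 1 and 5908 on replicate 4. Of the interferon list, only Isg15 was highest on neither replicate 1 nor 8, with 697 on replicate 6. Eif2ak4, which senses uncharged tRNA, had 94.7 ± 21.9 and was higher on replicate 3, at 132, than on replicate 8, at 61.6. Eif2ak3, which responds to unfolded protein in the endoplasmic reticulum, had 60.2 ± 17.0 and was below the floor on 2 arrays. Signals this close to the floor cannot be told from background, as no detection calls were used.

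**Figure D3:**
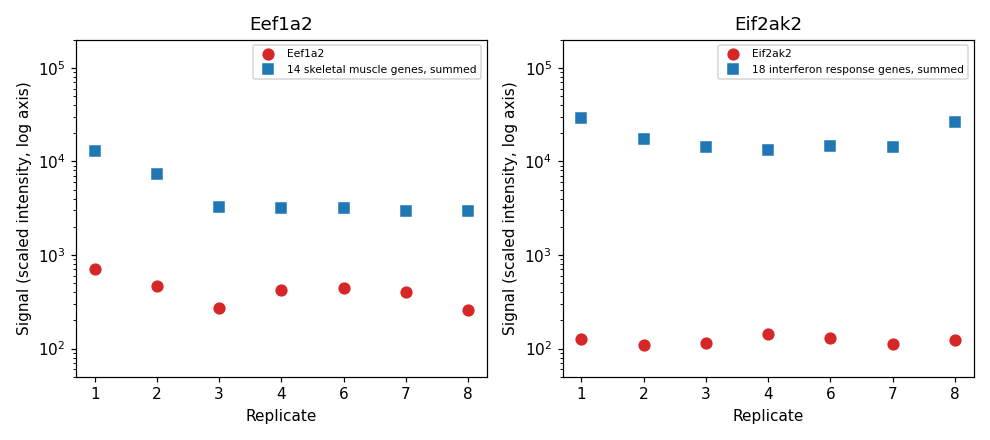
Signal on each replicate (log axis) of Eef1a2 beside the sum of 14 skeletal muscle genes (left) and of Eif2ak2 beside the sum of 18 interferon response genes (right). Replicates 1 and 2 are high in the muscle sum and replicates 1 and 8 in the interferon sum, while Eif2ak2 stays between 108 and 142.

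The eIF3 complex, the scaffold between the small subunit and the cap complex, held the steadiest translation factors. Eif3c, a core subunit, had 2837, 3065, 2796, 2938, 3024, 3032 and 2975 on replicates 1, 2, 3, 4, 6, 7 and 8, so its highest value was 1.10 times its lowest. Eif3c had a log2 SD of 0.05 against 0.15 expected, which had an unadjusted p under 0.05 but an adjusted p of 0.973 with the limma-based test. Its adjusted p lay between 0.798 and 0.981 under the alternatives, and its unadjusted p stayed under 0.05 in all but the setting without a filter. Eif3b, which anchors several subunits, had 1578, 1520.4, 1526, 1527, 1539, 1699.7 and 1434 on the same replicates. Its values on replicates 1, 2, 3, 4 and 6 lay within a narrow band, with replicate 7 above it and replicate 8 below. Eif3b had a log2 SD of 0.07 against 0.16 expected (adjusted p = 0.973 with the limma-based test), or 0.05 without replicate 7. Under the alternatives the adjusted p lay between 0.343 and 0.981, and the unadjusted p was under 0.05 in 13 of 22 settings, the reported one included. It was not without replicate 1, 2, 3, 4 or 6, each left out alone, without replicates 1 and 2 together, with median centring, without the filter, or with the array set as a term.

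The other tested eIF3 subunits spread more than Eif3b and Eif3c. Eif3k and Eif3d, peripheral and cap-binding subunits, had 1371 ± 93.0 and 1156 ± 105, both highest on replicate 1, at 1517 and 1342. Eif3a, the largest core subunit, had 527 ± 84.8 and was lowest on replicate 1, at 384, as were Eif3e at 342, Eif3l at 1824 and Eif3m at 1194. Replicate 1 was thus the lowest array for 4 of the 9 tested eIF3 genes and the highest for 2. Over all genes tested it was the lowest for 16.6% and the highest for 14.4%. Eif3l had 2337 ± 330.4, with its highest value, 2751, on replicate 6, and Eif3m had 1380.4 ± 168, with 1707 on replicate 3 and 1194 to 1428 on the rest. Eif3m had a log2 SD of 0.17, and 0.11 without replicate 3. Eif3j1, a loosely bound subunit, had 813 ± 76.1, and Eif3e had 422 ± 54.0, with a dimmer second probe set at 123 ± 47.6 that was highest on replicate 3 rather than replicate 4. Eif3f lay below the filter, at 134 ± 26.4. The median log2 SD was 0.13 over the 9 tested eIF3 genes, against 0.18 over all 4481 genes tested. As a ratio to the SD expected at each gene's level, the medians were 0.80 and 0.99.

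The eIF4 group includes the RNA helicases Eif4a1 and Eif4a2 and Eif4b, which stimulates them. Eif4a2 had 5653 ± 574, with 4568 on replicate 3 against 5526 to 6419 elsewhere, and a log2 SD of 0.15, or 0.08 without replicate 3, against 0.14 expected. Eif4a1, the form of eIF4A that most growing cells use, had 585 ± 46.5 on a probe set whose suffix marks relaxed design rules. The probe sets of Eif4b and Eif2b4 also carry a suffix other than the plain one. Eif4b had 935, 1188, 1840.5, 1054, 1515, 1709.6 and 1529 on replicates 1, 2, 3, 4, 6, 7 and 8. Replicates 1, 2 and 4 lay below the other 4 arrays, and the highest value was 1.97 times the lowest. Eif4b had a log2 SD of 0.37 against 0.16 expected, with an unadjusted p under 0.05 and an adjusted p of 0.636 in the limma-based test. Over the alternatives the adjusted p was 0.222 to 0.981, with 0.222 only without the filter, where Eef1a1 also had 0.222. The unadjusted p of Eif4b was under 0.05 in 15 of 22 settings, the reported one included. It was not without replicate 1 (log2 SD 0.31), without replicate 3 (0.34), without replicates 1 and 2 together (0.31), with the array set as a term (0.34), with the mean of all probe sets, without the filter, or with a prior that ignores the level. A second Eif4b probe set, at 464 ± 95.8, had its lowest value, 282, on replicate 4 and its highest, 592, on replicate 8. The other 2 Eif4b probe sets lay below the floor on all arrays, and averaging all 4 gave a log2 SD of 0.16.

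The cap-binding protein Eif4e had 52.3, 65.5, 52.4, 29.4, 102, 48.7 and 28.2 on replicates 1, 2, 3, 4, 6, 7 and 8, below the floor on 3 arrays. Its log2 SD after the floor was 0.38, and 0.15 without replicate 6, so the spread of this dim probe set rests on a single array. Eif4e2, a cap-binding relative that represses translation, had 298 ± 27.1 and ranged from 260.2 on replicate 1 to 327 on replicate 8. The dimmer second probe set of Eif4e2, at 89.9 ± 39.1, was instead highest on replicate 1, at 157. Of the scaffolds, Eif4g2, which supports initiation without the cap-binding protein, had 284 ± 31.1, and Eif4g3 had 321 ± 45.7. Both were lowest on replicate 3, at 255 and 250.3, and highest on replicate 8, at 344 and 390.4. Eif4g2 had a log2 SD of 0.15, and 0.09 without replicate 8. Eif4h, a partner of the helicase, had 12.2 to 29.4 and was below the floor on every array.

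The eIF4E binding proteins hold the cap-binding protein away from its scaffold until mTOR phosphorylates them. Eif4ebp1 had 380.0, 410.2, 421, 402, 374, 391 and 344 on replicates 1, 2, 3, 4, 6, 7 and 8. These values lay close together, with replicate 8 lowest and the highest 1.22 times the lowest. Eif4ebp1 had a log2 SD of 0.10 against 0.20 expected, with an unadjusted p under 0.05 but an adjusted p of 0.973 with the limma-based test, and 0.954 to 0.981 over the alternatives. Its unadjusted p was under 0.05 in 11 of the 21 settings that tested it, the reported one included. It was not without replicate 1, 2, 4, 6 or 7, each left out alone, where the log2 SD was 0.10 to 0.11. Nor was it without replicates 1 and 2 together, with the mean of all probe sets, without the filter, or with a prior without its robust step or its trend. Eif4ebp2 had 4821 ± 463, with 5696 on replicate 1 and 4248 to 5026 on the other 6 arrays, and like Eif4ebp1 it was lowest on replicate 8. Its log2 SD was 0.13, and 0.09 without replicate 1. The 2 dimmer probe sets of Eif4ebp2 had 645 ± 128 and 214 ± 59.8 and were highest on replicates 7 and 6. Eif4enif1, which carries eIF4E into the nucleus and to stores of silent mRNA, lay below the floor on every array, at 7.90 to 30.1.

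Eif5, which triggers GTP hydrolysis on eIF2 at the start codon, had 1515 ± 179 and was lowest on replicate 6 at 1297 and highest on replicate 8 at 1777. Eif5b, the GTPase of subunit joining, was likewise lowest on replicate 6, at 202, and had a mean of 292 ± 59.3. A second Eif5b probe set, at 68.5 ± 58.0, was below the floor on replicates 6, 7 and 8, so its lowest array cannot be told. It was highest on replicate 4, at 154, and the first on replicate 1, at 358. The 2 probe sets correlated at -0.01. Eif6, which keeps free large subunits from joining, had 748 ± 52.9, with 644 on replicate 4 and 736 to 802 on the other 6 arrays. Eif6 had a log2 SD of 0.11, and 0.05 without replicate 4, the array that was also lowest for Eif2s3x.

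Among elongation factors, Eef1a1 and Eef2 were bright, and neither had less spread than genes of its level at an unadjusted p under 0.05. Eef1a2 and Eef1b2 were the most variable translation factors for their level. Eef1a1, the form of eEF1A in most tissues (NCBI gene 13627), had 24363, 22139, 24251, 21417, 20942, 21814 and 19637 on replicates 1, 2, 3, 4, 6, 7 and 8. Replicates 1 and 3 were highest and replicate 8 lowest, a range of 1.24-fold. Eef1a1 had a log2 SD of 0.11 against 0.12 expected, and 0.05 with quantile normalization, which evens out the brightest probe sets by construction. Eef2 (NCBI gene 13629) had 8053, 6443, 7128, 7174, 7395, 7092 and 6810.1 on the same replicates, with replicate 1 highest and replicate 2 lowest. Eef2 had a log2 SD of 0.10 against 0.14 expected, and 0.04 without replicates 1 and 2 together.

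Eef1a2 is the form of eEF1A that adult skeletal muscle, heart and neurons use in place of Eef1a1 (NCBI gene 13628). It had 707, 466, 272, 425, 441, 401 and 259 on replicates 1, 2, 3, 4, 6, 7 and 8. Replicate 1 stood above the rest and replicates 3 and 8 below, with a range of 2.73-fold. The log2 SD of Eef1a2 was 0.49 against 0.20 expected, with an unadjusted p under 0.05 and an adjusted p of 0.600 in the limma-based test. Over the alternatives the adjusted p was 0.222 to 0.913, with 0.222 only without the filter, where Eef1a1 also had 0.222. Skeletal muscle markers moved in part with Eef1a2. Their sum was highest on replicates 1 and 2, as was Eef1a2. Replicates 3, 4, 6, 7 and 8 spanned 2927 to 3245 in the sum but 259 to 441 in Eef1a2. Of the 14 muscle markers, 8 passed the filter, and 9 were highest on replicate 1. Acta1 alone gave 5991 of the sum on replicate 1 and 2034 on replicate 2. Ckm, Myh4 and Actn3 went the other way, with their lowest values, 143.8, 102.6 and 56.1, on replicate 1. Myh2 was below the floor on all arrays, and no marker was listed at 0. Without replicate 1 the log2 SD of Eef1a2 was 0.37, as it was without replicates 1 and 2 together, and its unadjusted p did not stay under 0.05 in either case. The part of muscle RNA in the level of Eef1a2 was not tested. In bulk liver, a change in the cells present and a change in RNA per cell cannot be told apart.

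The eEF1B subunits return eEF1A to its GTP form. Eef1b2 had 388, 256, 195, 253, 363, 97.2 and 296 on replicates 1, 2, 3, 4, 6, 7 and 8, on a probe set whose suffix marks relaxed design rules. Replicate 7 stood far below the rest, and the range was 3.99-fold. The log2 SD of Eef1b2 was 0.67 against 0.26 expected, with an unadjusted p under 0.05 and an adjusted p of 0.532 in the limma-based test. Over the alternatives the adjusted p was 0.222 to 0.991, with 0.222 only without the filter, where Eef1a1 also had 0.222. Without replicate 7 the log2 SD of Eef1b2 was 0.37 and its unadjusted p did not stay under 0.05. The second Eef1b2 probe set was below the floor on 5 arrays. Eef1d, the other exchange subunit, had 924 ± 121 and was lowest on replicate 2 at 756 and highest on replicate 4 at 1056, while the probe set of Eef1g, the scaffold of the complex, lay below the floor on all arrays at 1.70 to 14.4.

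Eif5a, named an initiation factor but active in elongation at stalled ribosomes, had 71.0, 94.7, 97.3, 113, 69.3, 89.5 and 44.5 on replicates 1, 2, 3, 4, 6, 7 and 8, so it lay under 200.1 on every array and below the floor on replicate 8. The kinase Eef2k, which slows elongation by phosphorylating eEF2, had 66.5 ± 33.0 and was below the floor on replicates 3 and 4, at 16.9 and 23.3. Eef1akmt1, a lysine methyltransferase of eEF1A, had 151 ± 25.5, with 110.1 on replicate 8. None of these 3 genes was tested.

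**Figure D4:**
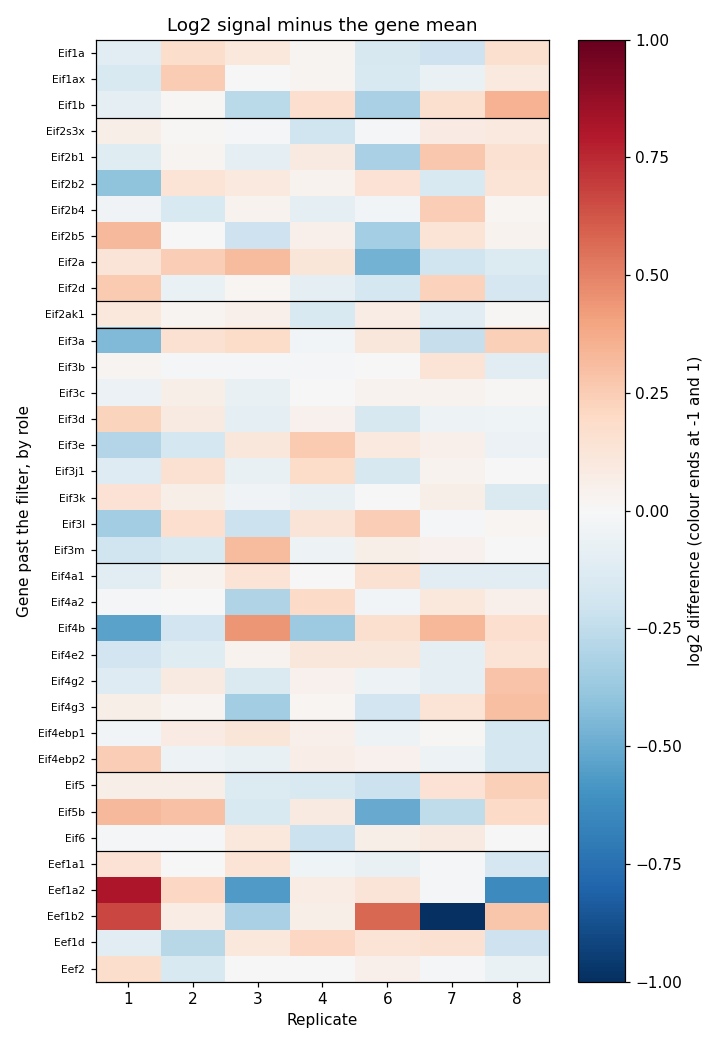
Log2 signal minus the gene's mean for the 36 translation factor genes past the filter (rows, lines between roles) on each replicate (columns), red above and blue below the mean. Eef1a2, Eef1b2 and Eif4b show the strongest colours, with replicate 7 lowest for Eef1b2 and replicate 1 highest for Eef1a2 and lowest for Eif4b.

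The translation factors did not rise and fall together across animals. Over the 630 pairs of the 36 tested genes, the mean Pearson correlation across the 7 arrays was -0.015, against 0.001 over pairs of all 4481 genes tested, and 2.06% of pairs were above 0.8, against 1.69%. The mean log2 deviation of the 36 genes stayed between -0.03 on replicate 6 and 0.03 on replicate 2. These correlations are descriptions over 7 points that share array, scaling and label, and centring each array on its median moved the mean to 0.037, against 0.027 for all genes. With array set means removed it was -0.009, against 0.001. Within roles, the 3 scanning factors had a mean correlation of 0.51, the 5 tested elongation factors 0.20, and the 9 tested eIF3 genes -0.01. The scanning mean was led by 0.85 between Eif1a and Eif1ax, while Eif1b had 0.43 with Eif1ax and 0.26 with Eif1a. The second probe sets of Eif1a and Eif1ax correlated at -0.37 and 0.15 with those used, so this mean depends on the probe set. Replicate 1 was the highest array for 11 of the 36 genes and the lowest for 8, and replicate 6 was the highest for 3 and the lowest for 9. Over all genes tested, replicate 1 was the highest for 14.4% and the lowest for 16.6%, and replicate 6 for 16.9% and 13.6%.

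**Figure D5:**
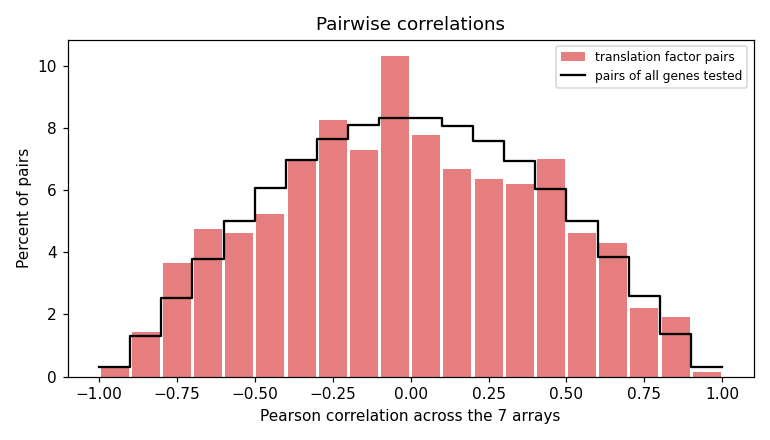
Percent of gene pairs in each range of Pearson correlation across the 7 arrays, for the 630 pairs of tested translation factors (red bars) and for pairs of all 4481 genes tested (black line). Both distributions centre near 0, with means of -0.015 and 0.001.

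The array sets did not separate the translation factors as a whole. Of the 36 tested genes, 19 (52.8%) had a higher mean log2 signal on replicates 6 to 8 than on replicates 1 to 4, against 52.7% of all genes tested. The median difference was 0.03 for the translation factors and 0.01 for all genes tested. Among these 36 genes the sets differed most for Eif2a, at -0.47, then for Eif4b at 0.38 and Eif5b at -0.33. Of the genes below the filter, Eif2ak4 differed by -0.50 and Eif5a by -0.45. For Eif4b the SD lay within replicates 1 to 4, at 0.43, more than within replicates 6 to 8, at 0.10.

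Genes that act with these factors were measured in 7 further lists. No gene of the following lists passed the limma-based test after adjustment in either direction. Of 5 tested genes of termination and recycling, Hbs1l, which rescues stalled ribosomes, had 1417 ± 70.5 and less spread at an unadjusted p under 0.05, and the release factor Etf1 had 1126 ± 62.5. Of 7 tested partners of the cap complex, the poly(A) binding protein Pabpc1 had 3489 ± 576 and Pdcd4, an inhibitor of eIF4A, had 2016 ± 158. Mknk1, a kinase of eIF4E, had more spread at an unadjusted p under 0.05, with 126 on replicate 3 and 440.4 on replicate 4. Of 9 tested mTOR signalling genes, Akt2 had 1310.3 ± 157 and the mTOR inhibitor Tsc2 had 795 ± 44.6, with less spread at an unadjusted p under 0.05.

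In the stress response downstream of eIF2, 7 genes were tested. The transcription factors Cebpb and Atf4 had 2466 ± 389 and 1633 ± 184. Ppp1r15a, a phosphatase subunit that removes the phosphate from eIF2, had more spread at an unadjusted p under 0.05, with 78.9 on replicate 4 and 318 on replicate 3. Atf4 had 1617 on replicate 4 and its lowest value, 1333, on replicate 3, where Ppp1r15a was highest. Of the 18 tested aminoacyl-tRNA synthetase genes, 0 had an unadjusted p under 0.05 in either direction, against 6.72% of all genes tested with more spread and 4.8% with less. The list had Aars at 1103 ± 127 and Tars at 784 ± 50.2. The counts were likewise 0 in either direction for the 4 tested mitochondrial translation factors, with Tufm at 1529.9 ± 163 and Gfm1 at 671 ± 81.6, and for the 2 tested factor modifying enzymes, Ppp2r1a at 1747 ± 159 and Dohh at 370.3 ± 53.4. The median log2 SD of these 7 lists ranged from 0.16 to 0.19, against 0.16 for the 36 translation factors and 0.18 for all genes tested.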

How the data were processed

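Liver RNA was hybridised to 1-colour Affymetrix U74Av2 arrays, per the labels' protocols. The authors deposited a linear intensity for each probe set on each array. Which software and scaling target made them is not given in the sources used here. Trimmed of 2% at both ends, the array means were 500.36 to 500.39, so the deposited values had been scaled. Platform annotation named a single gene for 10833 of 12488 probe sets, several for 396 and none for 1193, apart from 66 controls. All 48 translation factor identifiers matched the RefSeq gene table of GRCm38.p6.

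Arrays were scaled to the common trimmed mean, values under 0.1 of it were set to that floor, and log2 was taken. The test took genes whose mean reached 0.4 of it. With limma 3.58.1 (R 4.3.3), a model of the mean alone was fitted. Each variance was set against a robust prior that follows the level (prior degrees of freedom 5.61) by upper-tail and lower-tail F tests, with Benjamini-Hochberg adjustment over 4481 genes at 0.05. The step was tested on simulated data with known changes in spread, where adjusted calls recovered only extreme changes and missed moderate ones, so it had little power. The number of arrays limits the precision. Python 3.11.15 with pandas 2.3.3 and matplotlib 3.10.9 made the tables and plots.

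The genes and lists were chosen with earlier results of these data known. Every translation factor is named. Values on every array are given for those with an unadjusted p under 0.05, for the 3 of largest and the 3 of smallest relative SD, and for Eef1a1, Eef2, Eif4e, Eif4ebp1, Eif2ak2 and Eif5a. In each pathway list the 2 of highest signal and those with an unadjusted p under 0.05 are named. Alternatives were other scalings, floors, an offset, filters, the mean of all probe sets, other priors, the array set as a term, and leaving out each array. Leaving out replicates 1 and 2 together was chosen after seeing the data.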

Additional observations from a re-analysis of the deposited data

Results flagged for a closer look

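Eif2s3x, the X-linked gamma subunit of eIF2, stood apart on replicate 4: it had 2447 there and 2770.0 on the next lowest array, a gap of 0.598 of its log2 range over the 7 arrays, past Dixon's 95% limit for 7 samples. Eif6 had 644 on the same replicate and 736 on the next lowest array, a gap of 0.608 of its log2 range. Chance flags about 1 in 20 groups, and these were 2 of the 36 tested translation factors (5.56%), against 6.29% of all 4481 genes tested.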

How the results depend on the processing

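No paired analysis was possible because all samples form 1 group. No alternative gave a translation factor past the filter an adjusted p under 0.05. Over all genes tested, the count with more spread was 0 to 1 when single arrays were left out and 1 with an offset added instead of a floor, each time Acta1. The count with less spread was 0 to 1 when single arrays were left out (Cmc2 without replicate 3) and 1 with the mean of all probe sets (Psmc5). Without the filter it was 1039, of which 1033 lay at the floor on all arrays and so had no spread by construction, and Eef1g, Eif4h and Eif4enif1 were among them. The median log2 SD of the tested translation factors ranged from 0.13 to 0.17 over the alternatives. Their mean pairwise correlation was 0.037 with median centring, which also raised that of all genes, and -0.02 to -0.009 with single arrays left out. The median signal was 387 with the mean of all probe sets, as dim probe sets then count, 410 without replicates 1 and 2 together, and 416 to 424 with single arrays left out. Of 912 log2 SDs of single genes under the alternatives, 868 were within 1.5 times the main value, and the 44 that moved further belong to 30 of the 48 genes. The mean signal of 11 genes also moved by at least the gene's own SD over the arrays, each with the mean of all probe sets. Spread in genes near the floor, such as Eif4e, Eef2k and Eif5a, depends on the floor: the log2 SD of Eef2k was 0.87 with a floor of 0.05 of the trimmed mean and 0 with 0.2. The number of arrays and signal over background limit these values.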
